A study of Homo sapiens with 9 samples.

Results

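The unstressed state of the Jurkat line was read from the 3 sham arrays of the series, out of 9 arrays in 3 groups of 3, and was described for 19775 genes. Jurkat is an established human T lymphocyte line that was grown from an acute leukaemia, so all arrays stand for 1 line, and the labels name no donor T cells beside it. The sham cells were brought to 1200 cells/µl, put in an electroporation cuvette and set on the pulser with no power applied, and their total RNA was taken 4 h later. The other arrays held cells given nanosecond electrical pulses or heat shock, and their levels are not described here. The labels call the 3 sham samples biological replicates and number them 1 to 3. No groups were compared and no test was run, so every statement below is a description of the signal, with its spread over the 3 arrays.

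A T cell recognises antigen with a receptor of variable chains that signal through the CD3 and zeta chains. The kinase LCK phosphorylates these tails, ZAP70 binds to them, and adaptors such as LAT pass the signal on to calcium, RAS and NF-kB pathways. Developing thymocytes rearrange their receptor genes with the RAG recombinase and terminal transferase and carry CD1 molecules, which mature T cells largely lose. T cell leukaemias often keep the genes of the thymic stage at which they arose and may switch on transcription factors of other lineages. Jurkat has long served as the model in which many steps of T cell receptor signalling were worked out.

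Each array probes transcripts with sets of short oligonucleotides, and where a gene had several, the brightest by the mean of the sham arrays stood for it. The means of the 19775 genes ran from -0.66 to 15.31 with a median of 7.38. Genes for olfactory receptors, the odour sensors of the nose, served as an empirical background. The level exceeded by the top 5% of the 102 olfactory receptor genes was 7.62, 7.66 and 7.77 on replicates 1, 2 and 3. A gene above this level on each of the 3 arrays is called above background here, a gene at or under it on each is called at background, and the others are called mixed. By this rule 8922 genes, or 45.1%, were above background, 9812 genes, or 49.6%, were at background, and 1041 genes, or 5.26%, were mixed. A gene at background has only an upper bound, and its order among other such genes means nothing.

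**Figure D1:**
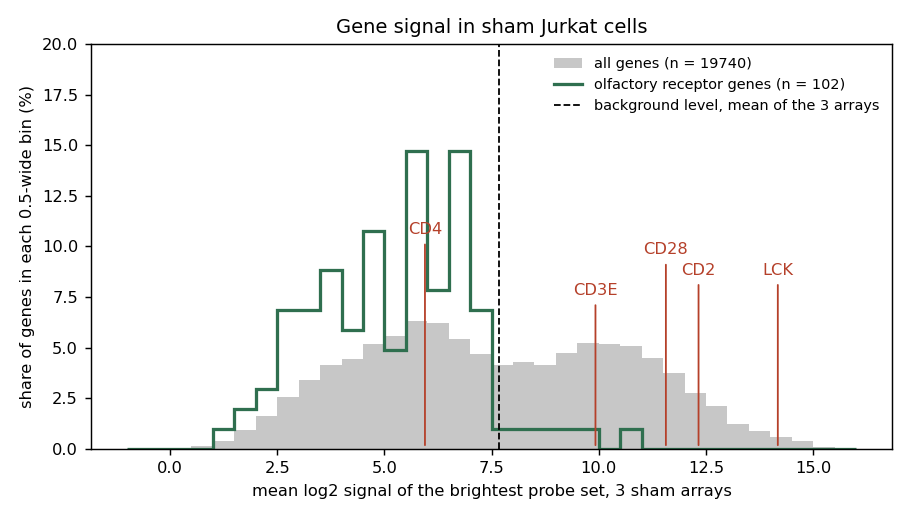
Mean log2 signal of the brightest probe set (x axis) against the share of genes in each bin in percent (y axis), for the 19740 genes that remain without the 35 of the Y chromosome and XIST (grey) and for the 102 olfactory receptor genes (green outline). The dashed line is the mean background level of the 3 arrays at 7.68, and the red lines mark the means of CD4 at 5.95, to its left, and of CD3E, CD28, CD2 and LCK between 9.92 and 14.18, to its right.

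By construction a few olfactory receptor genes lay above the level, and the 5 that did so on all 3 arrays were pseudogenes, the highest with a mean of 10.61. With the top 1% of the olfactory receptor genes as the level in place of the top 5%, 5810 genes were above background, so counts of dim genes rest on the choice of level. Just above the line lay RAPGEF5 and IL17RC, each with a mean of 7.72, and just under it lay ANKRD22 with 7.63. Some limits of the array bear on everything that follows. Probe sets differ in how well they bind, so the order of genes by signal is not an order of abundance and no fold between genes is given. A gene with more probe sets also has more chances of a bright one, and 58.6% of genes with 2 or more probe sets were above background against 29.8% of genes with 1.

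The median log2 signals of the arrays were 6.42, 6.43 and 6.33, and 9586, 9480 and 9225 genes lay over the level of replicates 1, 2 and 3 alone. The 3′ end of the beta-actin control was brighter than its 5′ end by 1.26 on replicate 1 and by 0.58 and 0.52 on replicates 2 and 3 (log2), a gap that grows as RNA is less intact, and its part in the values of replicate 1 was not tested. The same gap for GAPDH was 0.26, -0.05 and 0.21, so by this control replicate 1 was close to replicate 3. Across genes the correlation of a pair of arrays was between 0.952 and 0.959. Between 112 and 139 of the 54613 probe sets had the same value on a pair, so none was a copy of another.

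CD3E, CD2, CD28 and LCK, markers of T cells, were named whatever their values. They were chosen with earlier results of these data known, so their signal is no test of the cell type. CD3E, a CD3 chain of the receptor complex, gave 9.82, 9.98 and 9.97 on replicates 1, 2 and 3, with a mean of 9.92 ± 0.09 (SD, n = 3). CD2, an adhesion receptor of T cells, gave 12.25, 12.50 and 12.23, a mean of 12.33 ± 0.15. All 3 arrays lay over the background level for both genes and close to each other. CD28, the main costimulatory receptor, gave 11.33, 11.81 and 11.55, a mean of 11.57 ± 0.24. LCK, the kinase that starts signalling at the receptor, gave 14.23, 14.08 and 14.21, a mean of 14.18 ± 0.08, and ranked 169 among the 19775 genes. Each of the 4 genes was over the background level on every array. For CD28 2 of 3 probe sets were above background, and the median over them had a mean of 8.74.

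Of the 12 listed chains of the T cell receptor and CD3 complex 7 had a probe set that named only them, and 7 of 7 were above background, against 45.1% of all genes. The median of the list was 11.99, against 7.38 over all genes. CD3D was the brightest with 14.51, 14.34 and 14.65, a mean of 14.50 ± 0.15. TRBC1, a constant region of the receptor beta chain, followed with 14.46, 14.31 and 14.64, a mean of 14.47 ± 0.17. Both sat among the brightest 1% of genes, together with LCK. CD247, which codes for the zeta chain, had a mean of 12.34 ± 0.27, CD3G of 11.99 ± 0.36 and TRAT1, an adaptor that stabilises the complex, of 11.32 ± 0.39. Of the 2 probe sets of CD247 1 was above background, and the other had a mean of 2.20. PTCRA, the surrogate alpha chain that pairs with beta in immature thymocytes, was the dimmest of the 7 with 9.17, 8.62 and 8.64, a mean of 8.81 ± 0.32. TRBC1, TRAT1 and PTCRA rested on probe sets of the kinds that can match several transcripts, and without such probe sets 4 of 4 chains were measured and above.

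The promoters of CD3D, LCK and CD2 are shown because they belong to bright genes that mark the lineage, and those of CD1E and CD1A because they belong to bright genes of the thymic stage described further on. Each line gives 60 bases before the annotated start of transcription and the first 20 bases after it, 5′ to 3′ on the strand of the gene, from RefSeq on build GRCh38.p14. Capitals mark an unbroken run of C and T that begins with a C at the first transcribed base, where there is one of at least 5 bases.
CD3D (chr11:118342686-118342765, minus strand): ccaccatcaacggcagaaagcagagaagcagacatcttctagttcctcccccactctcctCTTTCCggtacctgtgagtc
LCK (chr1:32251205-32251284, plus strand): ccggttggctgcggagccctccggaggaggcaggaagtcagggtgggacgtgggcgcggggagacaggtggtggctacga
CD2 (chr1:116754370-116754449, plus strand): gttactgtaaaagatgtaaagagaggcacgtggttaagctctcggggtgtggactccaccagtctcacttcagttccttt
CD1E (chr1:158353834-158353913, plus strand): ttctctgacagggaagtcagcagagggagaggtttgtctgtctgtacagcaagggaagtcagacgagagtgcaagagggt
CD1A (chr1:158248276-158248355, plus strand): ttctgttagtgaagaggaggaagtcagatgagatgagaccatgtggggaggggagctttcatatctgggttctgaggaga
Over 300 bases, from 250 before the start to 50 after it, the CD3D promoter held 5 CpG dinucleotides, LCK 10, CD2 4, CD1E 4 and CD1A 2, where the median over all 27305 promoters was 14. Promoters were found for 42 of the 58 genes above background on the receptor, proximal, coreceptor and thymocyte lists, and their median was 7.5 CpG. It was 27 in the 7401 promoters of genes above background outside the brightest 100 and 11 in the 7141 of genes at background. The motif GGGCGG, the core of SP1 sites, stood on either strand in 33.3% of the 42, in 72.0% of the 7401, in 45.0% of the 7141 and in 44.6% of all promoters. In both measures the T cell promoters lay nearer to those of genes at background than to those of other genes above it. TGTGGT, the core of RUNX sites and a motif chosen after the data were seen, stood on either strand in 23.8% of the 42, in 8.97% of the 7401, in 12.8% of the 7141 and in 13.1% of all promoters. It also stood in 3 of the 10 promoters found for genes on the same lists that were at background. CCGGAAG, an ETS site of broadly used promoters chosen in the same way, stood in 0% of the 42 and in 22.5% of the 7401. It stood in 6.08% of the 7141, in 10.7% of all and in 0 of the 10 promoters of listed genes at background. These are counts of letters in a window, not of bound sites.

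Of 30 kinases, phosphatases and adaptors that act next to the receptor 29, or 96.7%, were above background, against 45.1% of all genes. The list median was 11.02. PTPRC, the phosphatase CD45 that keeps LCK ready, gave 12.94, 13.29 and 13.05, a mean of 13.09 ± 0.18. ZAP70 gave 12.20, 12.08 and 12.09, a mean of 12.12 ± 0.07, and the adaptor LAT gave 12.02, 12.32 and 11.98, a mean of 12.11 ± 0.19. The core of the relay was thus bright on all 3 arrays, from LCK to ZAP70 and LAT. SLA, an adaptor that dampens receptor signals, had a mean of 12.73 ± 0.25 and FYN, a kinase related to LCK, of 12.05 ± 0.17. At the dim end lay DOK2, an adaptor of inhibitory signals, with 8.82 ± 0.12, MALT1, a protease on the path to NF-kB, with 8.55 ± 0.30, and CBLB, a ubiquitin ligase that limits activation, with 8.43 ± 0.13. TXK, a kinase of the TEC family, was the exception at background with 5.58, 4.99 and 5.38.

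Of 25 coreceptors and costimulatory or inhibitory receptors 12, or 48.0%, were above background, 11 at it and 2 mixed, a share near the 45.1% of all genes. CD4, the coreceptor for class II molecules, gave 6.44, 6.39 and 5.00, and CD8A, the alpha chain of the coreceptor for class I, gave 6.02, 7.31 and 6.46. Neither reached the background level on any array, while CD8B, the other CD8 chain, was mixed with 8.94, 7.58 and 7.75. Below CD2 and CD28 came SIT1, an inhibitory adaptor in the membrane, with a mean of 10.72 ± 0.18, CD6 with 10.10 ± 0.40, CD96 with 9.42 ± 0.18 and CD5, a receptor that dampens signalling, with 9.31 ± 0.45. CD7, an early marker of the T lineage, had 9.14 ± 0.31. For CD6 1 of 7 probe sets was above background, for CD96 and CD7 1 of 2 each, and for CD5 2 of 2. ICOS with a mean of 3.20, LAG3 with 3.79, SLAMF7 with 4.16 and BTLA with 4.71 were at background. Some of these receptors are known to appear on activated T cells, as is CTLA4, at background with a mean of 5.95.

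Among cytokine receptor chains 14 of 24, or 58.3%, were above background. The share was 45.1% over all genes and 58.6% over genes with 2 or more probe sets, so the count is near the latter. The brightest were both chains of the interferon gamma receptor, IFNGR1 with a mean of 11.17 ± 0.21 and IFNGR2 with 10.54 ± 0.04, and TGFBR1, a receptor for TGF-beta, with 10.87 ± 0.21. For TGFBR1 1 of 3 probe sets was above background, for IFNGR1 2 of 3 and for IFNGR2 1 of 1. IL2RG, the chain shared by the receptors for several interleukins, had 10.32 ± 0.25, IFNAR2 for type I interferon 10.29 ± 0.50 and TNFRSF1A for tumour necrosis factor 10.01 ± 0.09. IL2RB, the beta chain for interleukin 2, gave 8.19, 8.53 and 7.98, whereas IL2RA, the alpha chain that makes the high affinity receptor, gave 5.64, 5.44 and 4.77 and was at background. IL18R1, IL12RB2, TNFRSF1B and IL6R were at background as well, with means between 1.40 and 3.89.

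Of 18 receptors for chemokines and trafficking lipids 3, or 16.7%, were above background, 3 mixed and 12 at it. CXCR4, which guides thymocytes and leukaemic cells toward CXCL12, gave 14.25, 14.16 and 14.42, a mean of 14.28 ± 0.13, and all 3 of its probe sets were above background. PTGER4, a receptor for prostaglandin E2, had a mean of 13.25 ± 0.27, and S1PR1, which guides exit from lymphoid organs, lay near the level with 7.62, 8.88 and 8.35. Of the 2 probe sets of PTGER4 1 was above background, and the other had a mean of 4.43. The list was thus carried by 1 bright chemokine receptor. Adhesion molecules were mostly bright, with 16 of 19, or 84.2%, above background. For both lists the share of all genes was 45.1%. CD99 had a mean of 13.93 ± 0.24, CD47, a brake on phagocytosis, 13.85 ± 0.19, the integrin chains ITGAE 13.14 ± 0.16, ITGA4 13.07 ± 0.11 and ITGB1 12.84 ± 0.10, and ICAM2 11.95 ± 0.16. CD44, the hyaluronan receptor, gave 5.26, 4.92 and 5.71, and none of its 13 probe sets was above background. ICAM1 with a mean of 6.97 and ITGB7 with 6.06 were the other members at background.

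Genes of immature thymocytes were above background in 11 of 15 cases, or 73.3%, with 2 mixed and 2 at background. The share was 45.1% over all genes and 58.6% over genes with 2 or more probe sets. CD1E gave 14.02, 14.01 and 14.04, a mean of 14.02 ± 0.02, the smallest spread among the genes of the list. CD1A, CD1B, CD1C and CD1D, which like CD1E serve the presentation of lipids, had means of 12.53 ± 0.09, 12.14 ± 0.16, 11.58 ± 0.23 and 11.28 ± 0.43. All 5 CD1 genes were thus far over the level. DNTT, the terminal transferase that adds bases at receptor gene joints, gave 13.46, 12.11 and 12.83, a mean of 12.80 ± 0.68. RAG1 gave 10.65, 9.71 and 9.07 and RAG2 gave 9.63, 8.50 and 8.12, with means of 9.81 ± 0.80 and 8.75 ± 0.78. Both recombinase genes were highest on replicate 1 and lowest on replicate 3, and both SDs were over 0.18, the median SD of genes above background. The progenitor receptors KIT, with a mean of 5.91, and FLT3, with 5.77, were at background, and CD34 and CD38 were mixed.

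Of 35 transcription factors of T cells and T cell leukaemia 21 were above background and 13 at it. The share was 45.1% over all genes and 58.6% over genes with 2 or more probe sets, so the count is near the latter. LEF1, a partner of Wnt signals, gave 14.16, 14.11 and 14.22, a mean of 14.16 ± 0.06, and MYB, a factor of blood progenitors, gave 14.08, 14.10 and 14.16, a mean of 14.12 ± 0.04. ETS1, with 13.97, 14.08 and 13.95, TCF12, an E protein, with 13.51 ± 0.17, SATB1, an organiser of thymocyte chromatin, with 13.14 ± 0.35 and IKZF1, which codes for Ikaros, with 13.08 ± 0.16 came next. TAL1, a factor of blood stem cells and red cells that is switched on in some T cell leukaemias, gave 12.77, 12.90 and 12.58, a mean of 12.75 ± 0.16. Its 4 probe sets did not agree, since 2 were above background and the lowest had a mean of 2.88, which is also the value without probe sets that can match several transcripts. GATA3, which acts in T cells with MYB, had a mean of 12.39 ± 0.23. Other factors that T cell leukaemias can switch on were at background, among them TLX1 with a mean of 1.98, TLX3 with 3.59, NKX2-1 with 3.93, MEF2C with 4.47, LYL1 with 5.15 and LMO2 with 5.85. LMO1, a partner of TAL1 in leukaemia, was mixed with a mean of 7.54.

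**Figure D2:**
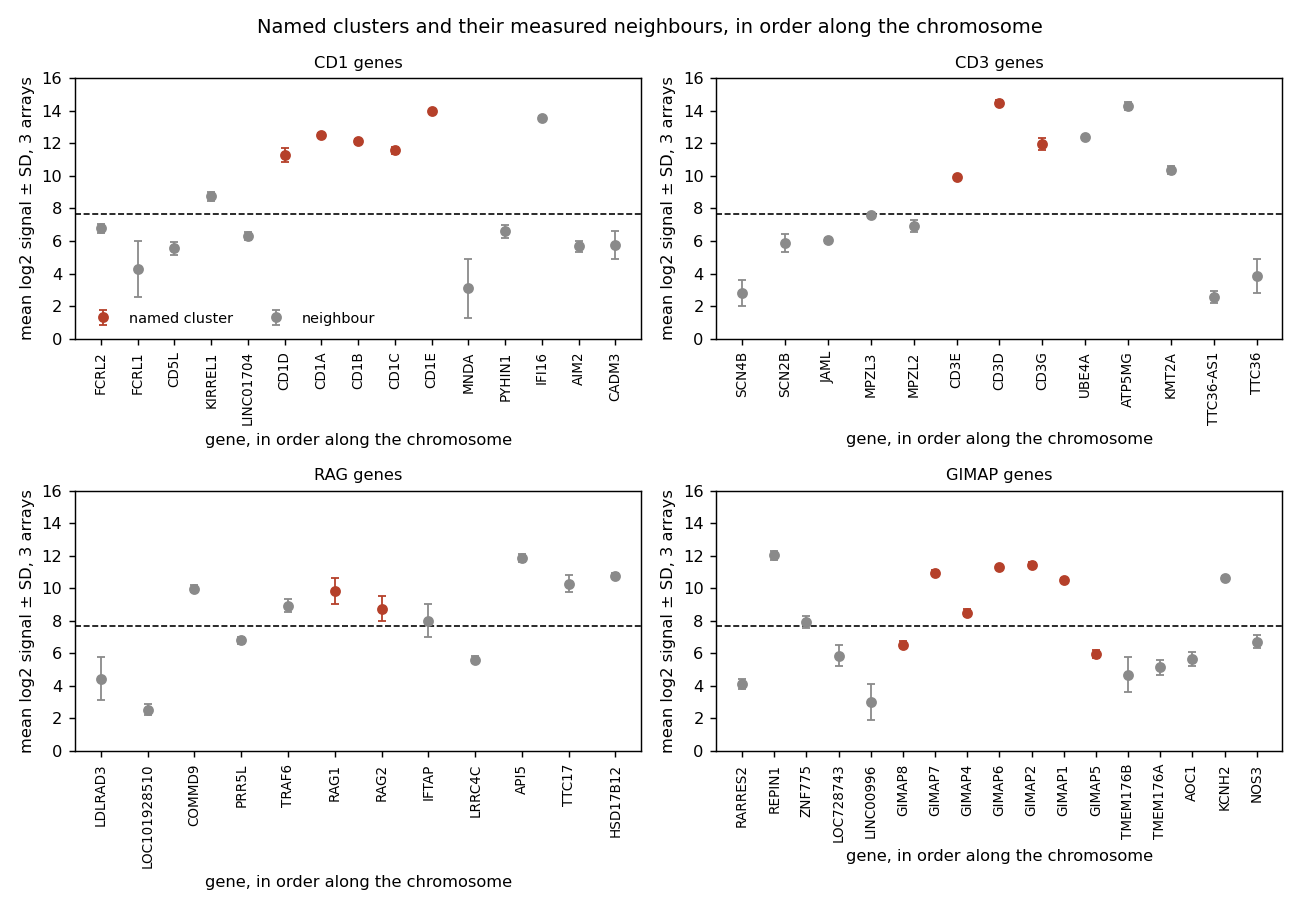
Mean log2 signal ± SD over the 3 sham arrays (y axis) of the CD1, CD3, RAG and GIMAP genes (red) and of up to 5 measured neighbours on each side (grey), in order along the chromosome (x axis). The dashed line is the mean background level at 7.68. The 5 CD1 genes stand together between 11.28 and 14.02, and within the GIMAP run the genes at both ends lie under the line.

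Gene order gave the same genes another view. The 5 CD1 genes lie side by side, and their nearest measured neighbours were at background on both sides, LINC01704 with a mean of 6.30 and MNDA, a myeloid gene, with 3.08. IFI16, a DNA sensor a little further on, was above with 13.59. The 3 CD3 genes also lie together, and on one side their neighbours UBE4A at 12.37 and ATP5MG at 14.30 were above background too. The GIMAP genes, GTPases of lymphocytes with roles in cell survival, were above background in 5 of 7 cases, or 71.4%. Over all genes it was 45.1%. GIMAP2 had a mean of 11.46 ± 0.14, GIMAP6 of 11.32 ± 0.08, GIMAP7 of 10.97 ± 0.15, GIMAP1 of 10.49 ± 0.12 and GIMAP4 of 8.50 ± 0.21. GIMAP8 with 6.54 ± 0.21 and GIMAP5 with 5.97 ± 0.23, which lie at the ends of the run, were at background, and 3 further probe sets that name GIMAP5 together with another gene were left out. The neighbours were named after their values were seen.

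Markers of other blood lineages were mostly at background. Over the B cell, myeloid, natural killer and red cell lists 7 of 60 genes, or 11.7%, were above background, 4 were mixed and 49 were at it. Over 5 lists of T cell genes, for the receptor, its relay, coreceptors, thymocytes and factors, 79 of 111 genes, or 71.2%, were above background. The share was 45.1% over all genes and 58.6% over genes with 2 or more probe sets. Coreceptors, with 48.0%, lay near the former and factors, with 21 of 35, near the latter. The receptor with 7 of 7, the relay with 29 of 30 and thymocytes with 73.3% lay over both. All of these lists were chosen with earlier results of these data known. Of 14 B cell markers 2 were above, CD79A with 8.28, 8.64 and 9.28, and BLK, a kinase of B cells and some thymocytes, with 7.67, 8.35 and 8.47. MS4A1, which codes for CD20, with a mean of 6.84 and PAX5, the factor that fixes B cell fate, with 5.66 were at background on each array. Of 20 myeloid markers 1 was above, AIF1, a calcium binding protein of macrophages, with 12.78, 12.89 and 13.13, and 3 of its 4 probe sets were above background. All of the probe sets above are of the kinds that can match several transcripts, and without those 0 of 18 measured myeloid markers were above. SPI1, the factor that drives myeloid fate, CD14 and LYZ, the lysozyme gene, were at background with means of 3.52, 2.29 and 3.85.

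Of 14 natural killer and cytotoxic markers 2 were above. GZMA, a granule protease, gave 8.81, 11.10 and 9.77, and PRF1, which codes for perforin, gave 8.02, 8.52 and 8.32. NKG7, a granule membrane protein, was mixed with 7.52, 9.50 and 9.26, so GZMA and NKG7 were both lowest on replicate 1 and highest on replicate 2. GZMB with a mean of 5.08 and the receptor KLRB1 with 2.81 were at background. Of 12 red cell and platelet markers 2 were above, EPOR, the erythropoietin receptor, with a mean of 8.28 ± 0.12, and HBB, a globin gene, with 7.84 ± 0.19, close to the level. The count was 1 without replicate 1 and 1 without replicate 3. GATA1, the factor of red cells, was at background with a mean of 5.90. How strict a list of genes restricted to other organs is was not tested. Of its 45 measured genes 3, or 6.67%, were above, against 45.1% of all genes. They were MBP, known from myelin, with a mean of 10.36 ± 0.48, PDE6B of the retina with 8.19 ± 0.16 and SFTPB of the lung with 8.01 ± 0.33. INS and GCG, the hormone genes of the pancreas, were at background with 1.32 and 2.32.

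**Figure D3:**
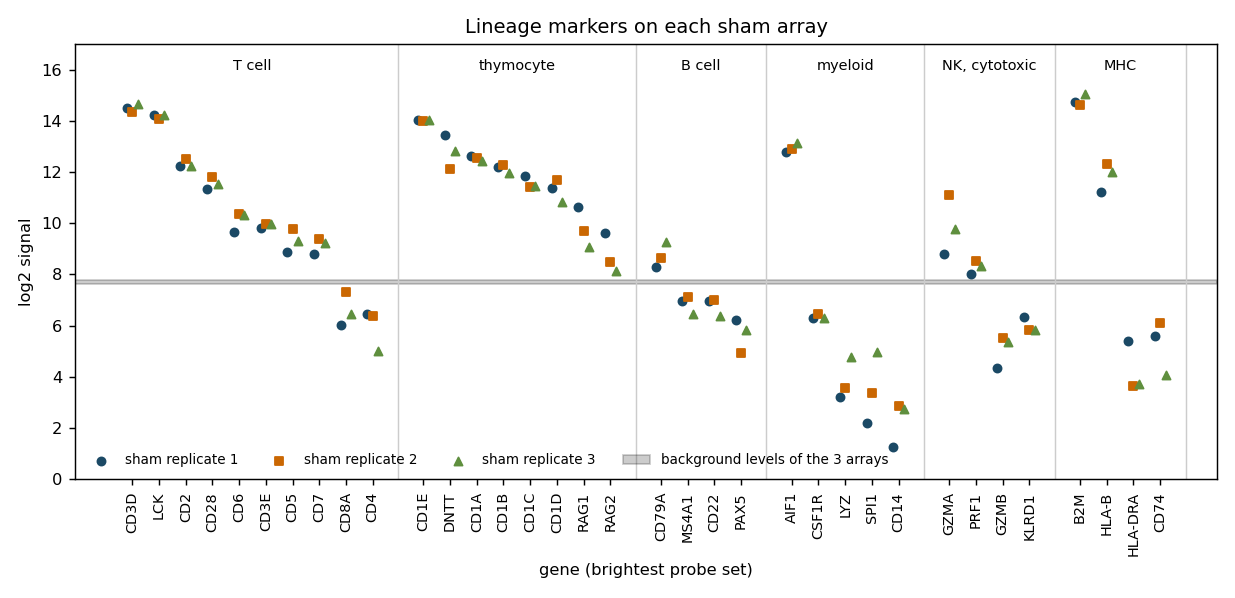
Log2 signal (y axis) of selected markers (x axis, grouped by cell type or MHC) on sham replicates 1, 2 and 3 (circles, squares and triangles), with the background levels of the 3 arrays, 7.62 to 7.77, as a grey band. T cell and thymocyte markers lie over the band except CD8A and CD4, and AIF1, CD79A, GZMA and PRF1 are the shown markers of other lineages that lie over it on every array.

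Antigen presentation split by class, beside 45.1% above background over all genes. All 14 measured genes of class I and its peptide loading were above background, from NLRC5, a regulator of class I genes, with a mean of 8.52 ± 0.17 to B2M, the shared light chain, with 14.79 ± 0.22. HLA-C gave 11.77, 13.03 and 12.74 and HLA-B gave 11.22, 12.30 and 12.01, and both were lowest on replicate 1. PSMB8 and PSMB9, subunits of the immunoproteasome, had means of 11.85 ± 0.23 and 11.73 ± 0.07, and TAP1, of the peptide transporter, had 9.61 ± 0.06. Of 12 class II genes 0 were above background, 11 were at it and HLA-DMA was mixed with 6.95, 7.71 and 7.30. HLA-DRA gave 5.41, 3.64 and 3.73 and CD74, the invariant chain, gave 5.58, 6.10 and 4.06. HLA-DMB was at background with a mean of 7.48, and at the lower level set by the top 10% of olfactory receptor genes 2 of the 12 were above. Probe sets of the HLA genes can share targets between members of the family, so single HLA values are uncertain.

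Over the calcium, phosphoinositide 3-kinase, MAP kinase, NF-kB and JAK-STAT lists 72 of 92 genes, or 78.3%, were above background. The share was 45.1% over all genes, 51.9% over protein coding genes and 58.6% over genes with 2 or more probe sets. Of 26 genes of calcium entry, stores and calcineurin 20 were above. ATP2A3 and ATP2A2, pumps that fill the calcium stores, had means of 12.45 ± 0.17 and 12.32 ± 0.13. PPP3CB and PPP3R1, subunits of the phosphatase calcineurin, had 11.77 ± 0.36 and 11.52 ± 0.17, and NFATC3, a factor that calcineurin switches on, had 11.15 ± 0.24. CAMK4, a kinase under calmodulin, had 11.10 ± 0.23. Channels of the cell surface were found on both sides of the level. ORAI2 and ORAI1, which let calcium in when the stores are empty, were above background with means of 10.75 and 10.11. The potassium channels KCNN4 and KCNA3, which sustain calcium entry in T cells, were at background with means of 5.72 and 4.60, as were the ATP-gated channels P2RX1 with 5.02 and P2RX7 with 4.77.

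Of 19 measured genes of the phosphoinositide 3-kinase pathway 16 were above background, 1 was mixed and 2 at it. PIK3R1, a regulatory subunit of the kinase, gave 12.74, 12.44 and 12.40, a mean of 12.52 ± 0.19. INPP4A, a lipid phosphatase, lay between 11.94 and 12.09. The factor FOXO3 had a mean of 11.54 ± 0.10, the kinase PDPK1 11.37 ± 0.16, RICTOR of the second mTOR complex 10.84 ± 0.08 and AKT2 10.64 ± 0.11. INPP5D, the phosphatase SHIP1 that removes a phosphate from the lipid product, gave 9.0, 9.54 and 9.35, a mean of 9.30 ± 0.27, with 2 of its 3 probe sets above background and the lowest at 5.68. Without the probe sets that can match several transcripts it stood at 7.87, close to the level. INPP4B and FOXO1 were at background with means of 5.21 and 7.07.

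Of 20 RAS and MAP kinase genes 15 were above, 2 mixed and 3 at background. MAP2K2 and MAP2K1, the kinases that switch on ERK, had means of 11.74 ± 0.62 and 10.84 ± 0.21, the JNK kinases MAPK9 and MAPK8 had 11.24 ± 0.29 and 9.80 ± 0.50, and HRAS had 10.29 ± 0.07. DUSP1, a phosphatase that ends MAP kinase signals, had 9.79 ± 0.24, whereas DUSP6 and DUSP4, feedback phosphatases of ERK, were at background with 7.08 and 5.95 and DUSP5 was mixed. Of 14 NF-kB genes 11 were above, led by CHUK, an inhibitor kinase, with 11.33 ± 0.15 and TRAF3 with 11.32 ± 0.21. RELA, a subunit of the classical pathway, had 10.43 ± 0.38, and TNFAIP3, an inhibitor, had 10.67 ± 0.45. The 3 members at background were MAP3K14 with 7.30, NFKB2 with 6.74 and RELB with 6.39. Of 13 JAK-STAT genes 10 were above, among them STAT3 with 11.31 ± 0.30, STAT6 with 11.23 ± 0.18 and JAK1 with 11.09 ± 0.20, and JAK2, SOCS1 and SOCS3 were at background with means between 7.04 and 7.08.

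Immediate early genes, which respond to a stimulus within minutes, were above background in 10 of 21 cases, or 47.6%, with 3 mixed and 8 at it, a share near the 45.1% of all genes. JUND, an AP-1 subunit with steady expression, gave 11.82, 11.79 and 11.60, a mean of 11.74 ± 0.12. IER2 had a mean of 11.63 ± 0.38, IER5 of 10.76 ± 0.14, KLF2, a factor of resting T cells, of 10.50 ± 0.30, JUN of 9.94 ± 0.12 and IER3 of 9.61 ± 0.26. EGR1 gave 7.79, 8.83 and 8.16, a mean of 8.26 ± 0.53, only a little over the level. The median over its probe sets had a mean of 7.28, and all of them are of the kinds that can match several transcripts. FOS gave 2.61, 3.84 and 2.77 and was at background together with FOSB at 4.21 and FOSL1 at 3.66, so the FOS members named here stood at background while JUN and JUND did not. NR4A2, a nuclear receptor induced by activation, was at background with 3.89.

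Of 23 cytokines and chemokines 2, or 8.7%, were above background, against 45.1% of all genes. MIF, which many cells hold ready-made, gave 14.19, 14.06 and 14.56, a mean of 14.27 ± 0.26, and LTB, a lymphotoxin chain of the cell surface, gave 8.14, 8.31 and 8.38. IL2, the growth factor that activated Jurkat cells are known to make, gave 4.10, 4.45 and 2.56 and was at background. CCL20 with a mean of 2.27, CCL1 with 2.41, IL3 with 2.69 and IL10 with 3.44 were at background too.

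Of 31 genes of the BCL2 family, caspases and death receptors 25, or 80.6%, were above background, against 45.1% of all genes. CYCS, the cytochrome c gene, was the brightest with 14.46, 14.40 and 14.58. CASP2 had a mean of 12.80 ± 0.12, BID, which links death receptors to mitochondria, 12.23 ± 0.07, and the inhibitors BIRC5 and XIAP 12.12 ± 0.26 and 12.11 ± 0.23. DIABLO, which relieves such inhibitors, had 12.04 ± 0.13. Promoters and inhibitors of cell death were thus above background side by side. BCL2L2 with 6.52, HRK with 6.04, BCL2A1 with 5.63 and BOK with 4.69 were at background.

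Of 39 genes of the cell cycle and DNA replication 33, or 84.6%, were above background, against 45.1% of all genes. The list median was 12.14. TYMS, which makes thymidylate for DNA, gave 14.73, 14.56 and 15.11, a mean of 14.80 ± 0.28, and CDK6, a kinase of the G1 phase, gave 14.69, 14.57 and 15.00, a mean of 14.75 ± 0.22. RRM1 and RRM2, of ribonucleotide reductase, had 14.21 ± 0.23 and 13.99 ± 0.19, MCM6, of the replicative helicase, 13.97 ± 0.11 and CDK1 13.95 ± 0.30. Of 6 measured inhibitors of cyclin-dependent kinases 2 were above background, CDKN1B with a mean of 11.89 and CDKN2D with 9.42, and 4 were at it. Among the latter CDKN2B had a mean of 3.92, CDKN2A of 5.57 and CDKN1A of 6.37, the last with 4.57, 7.02 and 7.50. CCND1, a cyclin of many tissues but rarely of lymphocytes, was at background too with 4.91.

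Of 19 measured heat shock proteins and chaperones 14, or 73.7%, were above background in these cells without heat. The share was 45.1% over all genes and 58.6% over genes with 2 or more probe sets. HSPD1, the mitochondrial chaperonin, gave 14.98, 14.73 and 15.30, a mean of 15.00 ± 0.29. HSP90AA1 and HSP90AB1, the cytosolic HSP90 genes, had means of 14.92 ± 0.33 and 14.26 ± 0.23, HSPE1, the partner of HSPD1, 13.99 ± 0.16, DNAJA1 13.71 ± 0.16 and the mitochondrial HSPA9 13.36 ± 0.03. HSPA6, a chaperone known for strict induction by stress, gave 6.44, 6.88 and 6.03 and was at background. CRYAB with 5.97, SERPINH1, a collagen chaperone, with 4.07 and HSPA1L, known from the testis, with 3.70 were at background too.

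The brightest signals belonged to the machinery that every cell uses. Over the ribosomal, translation, glycolysis, respiratory, cytoskeletal, reference and chromatin lists 198 of 214 genes, or 92.5%, were above background, against 45.1% of all genes. The median of their means was 13.67. Of the 100 brightest genes 41 were on the list of cytosolic ribosomal proteins, 8 on that of translation factors and 5 in the mitochondrial genome. A further 24 were on other lists and 22 on none, and the dimmest of the 100 had a mean of 14.48. Genes of the ribosomal list held 19 of the first 30 places, and RPS4X, a ribosomal protein that the list does not hold, ranked 27. RPS23 came first with 15.36, 14.95 and 15.63, a mean of 15.31 ± 0.34, followed by RPL7 with 15.26 ± 0.24, RPL37A with 15.25 ± 0.27 and RPS10 with 15.22 ± 0.29. These means differed by less than the spread of each over the arrays, but that spread holds a shared offset of the arrays, given below. RPS23 was over RPL37A and RPS10 on every array, whereas RPL7 was over RPS23 on replicate 2, with 15.01 against 14.95. The order at the top thus changed in part between arrays. Of the 100 brightest genes 77 stood for probe sets of the kinds that can match several transcripts, against 27.1% of all genes. Without those probe sets 11 of the 100 brightest were ribosomal.

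Of 52 measured ribosomal genes 51 were above background, with a list median of 14.79. The exceptions to the crowd were RPL27A with a mean of 11.07 ± 0.43, RPLP2 with 9.31 ± 0.43 and RPL36A at background with 6.03 ± 0.16. A probe set that names RPL36A together with another gene was left out, so this low value speaks for 1 remaining probe set. Of 27 translation factors 26 were above, with EEF1A1, which brings transfer RNA to the ribosome, at 15.10 ± 0.38, TPT1 at 15.07 ± 0.28 and NACA at 14.89 ± 0.14. EIF4A2, a helicase of translation, stood at background with 3.58 ± 0.79, again with 1 probe set left after 2 that name several genes.

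The promoters of RPS23, RPL37A, EEF1A1 and TPT1 are shown because they carry a run of pyrimidines at the start of transcription, a feature known from genes of the translation machinery. The bases, build and capitals are as for CD3D above.
RPS23 (chr5:82278335-82278414, minus strand): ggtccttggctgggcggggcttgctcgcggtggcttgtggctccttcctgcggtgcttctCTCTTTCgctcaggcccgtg
RPL37A (chr2:216498784-216498863, plus strand): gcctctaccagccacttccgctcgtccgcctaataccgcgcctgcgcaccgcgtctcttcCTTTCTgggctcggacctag
EEF1A1 (chr6:73521013-73521092, minus strand): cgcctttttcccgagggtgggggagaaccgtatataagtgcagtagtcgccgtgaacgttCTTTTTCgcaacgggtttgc
TPT1 (chr13:45341164-45341243, minus strand): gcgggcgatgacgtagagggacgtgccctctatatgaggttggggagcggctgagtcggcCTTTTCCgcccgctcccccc
A start tract was counted where the first transcribed base was a C followed by 4 bases that were each C or T, on the strand of the gene. It stood in 34 of 46 promoters of the ribosomal list, or 73.9%, and in 33 of 82 promoters of the brightest 100 genes, or 40.2%. In the other genes above background it was 5.19%, in genes at background 3.25% and in all promoters 4.04%. Of the 41 promoters of the brightest 100 outside the ribosomal and translation lists 5 had it, or 12.2%. Without probe sets that can match several transcripts the share in the brightest 100 was 23.5%. CD3D was 1 of 3 among the 42 T cell promoters that had such a tract. TATAAA, the sequence of the TATA box, was counted on either strand anywhere in the 300 bases, so a match need not be such a box. It stood in 12.2% of the promoters of the brightest 100 genes, near the 13.4% of those at background. The share was 4.45% in the promoters of other genes above background. Counted only in a set region near the start, it was 8.54%, or 7 of 82 promoters, in the brightest 100. That count gave 4.96% in genes at background and 1.04% in the other genes above.

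Energy metabolism was bright as well. All 7 measured genes of the mitochondrial genome were above background, with the cytochrome c oxidase gene COX2 at 15.16 ± 0.31, ND4 of the first respiratory complex at 15.10 ± 0.17 and ATP6 of the ATP synthase at 14.94 ± 0.19. Of 40 nuclear genes of the respiratory chain and ATP synthase 37 were above, with a list median of 13.24 and a median SD of 0.14. COX7C had 14.65 ± 0.22 and ATP5F1A, a catalytic chain of the synthase, 14.35 ± 0.22. The 3 at background were COX4I2 with 7.15, COX6A2 with 7.02 and COX7A1 with 2.95, forms known from lung or muscle. Of 24 glycolytic genes 17, or 70.8%, were above, where the share was 45.1% over all genes and 58.6% over genes with 2 or more probe sets. LDHB gave 14.75, 14.40 and 15.10 and LDHA, the other lactate dehydrogenase subunit, gave 14.71, 14.53 and 14.86. GAPDH had a mean of 14.59 ± 0.33, PGK1 of 14.52 ± 0.18 and ENO1 of 14.37 ± 0.08. PGAM2 of muscle, HK3, PKLR of liver and red cells and LDHC of testis were at background with means between 3.47 and 7.35.

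Of 36 cytoskeletal genes 32 were above. TMSB4X, which binds free actin, gave 15.17, 15.00 and 15.45, ACTB gave 15.14, 14.87 and 15.32, and TUBA1B, an alpha tubulin, gave 15.01, 14.76 and 15.20. ACTA2 of smooth muscle was at background with a mean of 7.04, and PLS3, a plastin of solid tissues, with 5.21. All 27 genes of histones, HMG proteins and chromatin regulators were above, from KDM6A, a histone demethylase, with 8.78 ± 0.18 to NPM1, a nucleolar chaperone, with 14.84 ± 0.38. All 12 common reference genes were above. HPRT1 gave 12.96, 12.87 and 13.23, a mean of 13.02 ± 0.19, though its other probe set had a mean of 3.95. The dimmest reference genes were GUSB with 10.93 ± 0.15, SDHA with 10.87 ± 0.16 and POLR2A with 10.21 ± 0.55, the last with the widest spread of the 12.

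**Figure D4:**
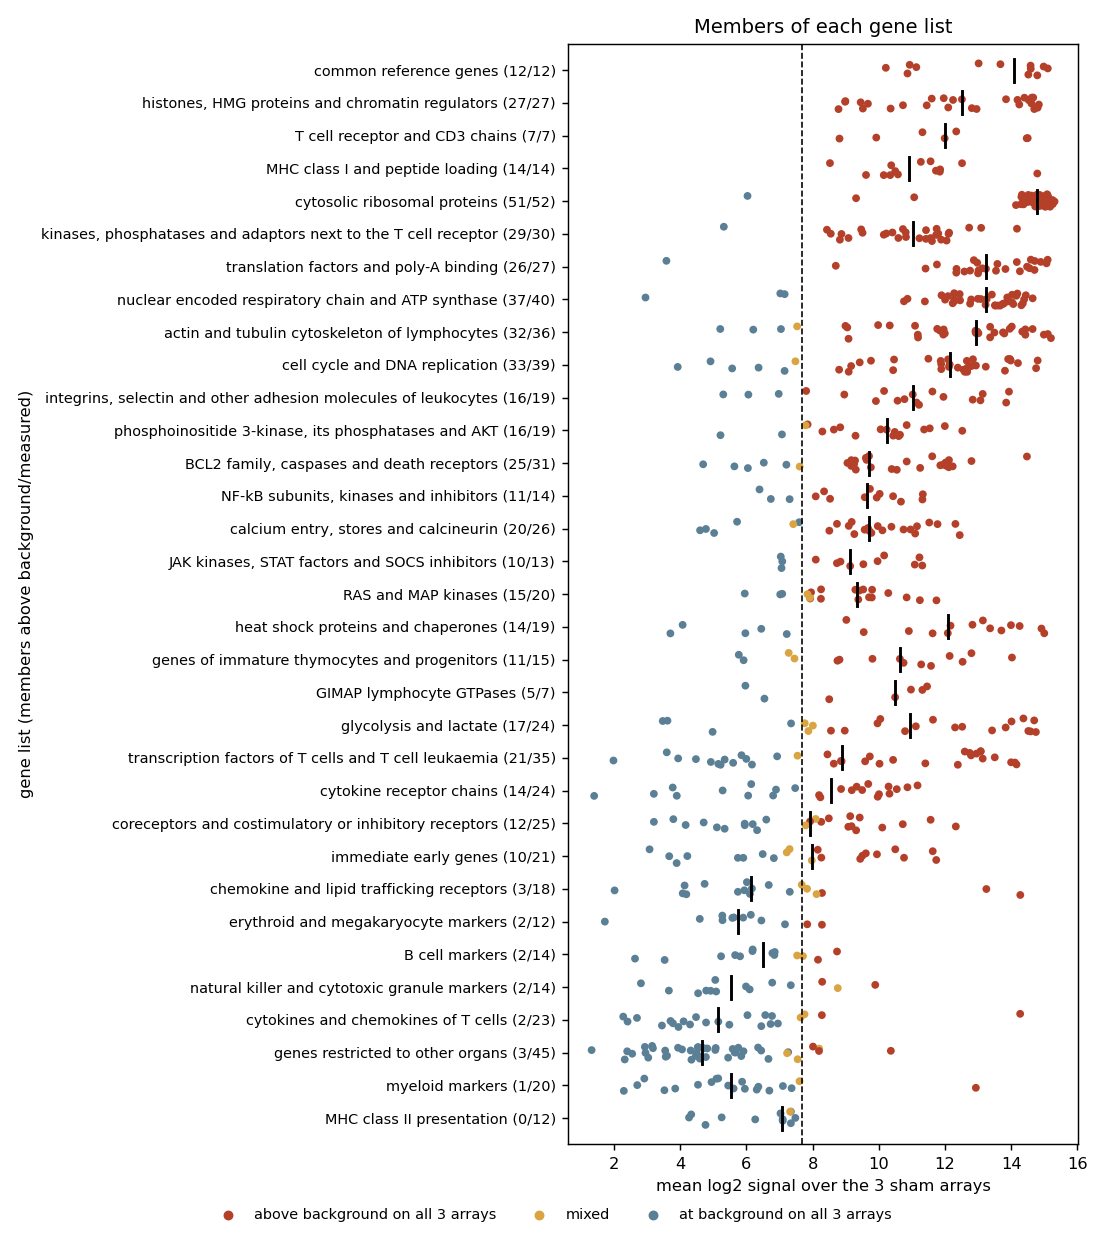
Mean log2 signal over the 3 sham arrays (x axis) of the measured members of each of the lists (y axis, with members above background over members measured). Points are genes coloured by class, black ticks are list medians and the dashed line is the mean background level at 7.68. The ribosomal genes crowd near their median of 14.79, and the class II genes all lie under the line.

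Class also went with the kind of gene. Of 16521 genes that RefSeq calls protein coding 51.9% were above background, of 2658 long noncoding RNA genes 8.39%, and of 424 transcribed pseudogenes 22.4%. By chromosome the share ran from 39.3% of 242 genes on chromosome 21 to 51.0% of 612 genes on chromosome 15, with 40.8% of 696 genes on the X chromosome. Of the 6164 genes above background with 2 or more probe sets 1918, or 31.1%, had all of them above, and 2321 had only 1. The brightest and the dimmest probe set of these genes lay 3.63 apart at the median (log2), a gap far wider than the spread of a bright gene between arrays.

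The spread between the sham arrays followed the signal. The median SD over the 3 arrays was 0.90 in genes up to the first quartile of the means, 0.42 and 0.22 between the quartiles that follow and 0.17 over the last (log2). Of the genes above background 5059, or 56.7%, had an SD under 0.2, and 175, or 1.96%, had a range over 1. In the 100 brightest genes replicate 2 was the lowest array in 94 and replicate 3 the highest in 91, with array means of 14.81, 14.59 and 15.03 for replicates 1, 2 and 3. A shared offset of the arrays at the top of the scale thus sits in the SDs of the ribosomal genes.

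**Figure D5:**
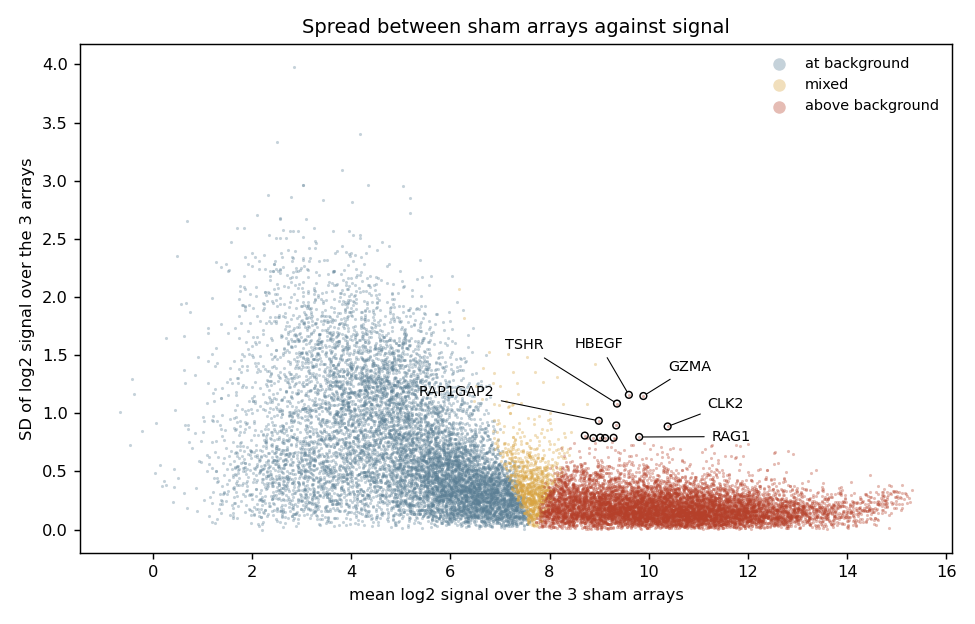
SD of the log2 signal over the 3 sham arrays (y axis) against its mean (x axis), 1 point a gene, coloured as above, mixed or at background, with the 12 most variable genes above background circled and some of them named. The SD reaches beyond 3 among dim genes and is at most 1.16 in the genes above background.

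The genes above background that varied most were HBEGF, a growth factor of the EGF family, with 8.42, 10.74 and 9.64 (SD 1.16), and GZMA, given above (SD 1.15). TSHR, the thyrotropin receptor, gave 10.34, 8.19 and 9.55 (SD 1.08) and was lowest on replicate 2, the array on which HBEGF and GZMA were highest. RAP1GAP2 gave 7.95, 9.75 and 9.29, BCL7C 9.14, 8.57 and 10.32 and CLK2, a kinase of splicing factors, 9.88, 9.85 and 11.41. HPGD, which breaks down prostaglandins, RAG1, FAM30A, BLZF1, PRKCE and AP1G2 completed the 12, with SDs between 0.79 and 0.81. No 1 array carried this variation, since among the 175 genes with a range over 1 replicate 1 was the odd one out in 28 genes on the high side and 32 on the low, replicate 2 in 27 and 40 and replicate 3 in 20 and 28.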

How the data were processed

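The authors hybridised biotin-labelled RNA to Affymetrix HG-U133 Plus 2.0 arrays and deposited log2 values of the MAS5 signal, which summarises perfect-match and mismatch probes and brings every array to the same trimmed mean. The mean signal without the lowest and highest 2% was 500.1 on each sham array. The values were not quantile normalized, and detection calls were not used here. From 54675 probe sets 62 controls were left out. Of the other 54613, 41091 had 1 gene symbol, 1801 several and 11721 had no entry in the platform table; only the first were used, and 41037 matched RefSeq by gene ID. Of 860 genes on 33 lists, 112 had no such probe set and are not analysed here. Groups came from the sample titles.

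Named genes were CD3E, CD2, CD28 and LCK, the 30 brightest, up to 6 highest and 4 lowest of each list, the 12 most variable above background and a few fixed names. CD7, CD8B, CTLA4, IL2RA, IL2RB, ORAI1, ORAI2, CDKN1B, CDKN2D, GATA3, LYL1, LMO2, LMO1, MS4A1, PAX5, GZMB, GATA1, NKG7, RAG1 with RAG2 and the genes just above or under the level were named after their values were seen. The members and lists were chosen with earlier results of these data known. Counts, means and SDs were made with pandas 2.3.3 and numpy 2.4.6 in Python 3.11.15. The classification was tried on simulated data whose expressed and background genes were set far apart, which cannot speak for genes near the level. Motifs were counted in RefSeq promoters (GRCh38.p14); protein lengths were not used here. Alternatives changed the background level or list, the choice of probe set, the scale of the arrays and the arrays used. The number of arrays limits the precision, and the SD measures only the spread between these samples, whose separate cultures the labels do not describe.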

Additional observations from a re-analysis of the deposited data

How the results depend on the processing

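Over the alternatives, the count of genes above background, 8922, lay between 7158 and 9643, except with the top 1% of olfactory receptor genes as the level, which left 5810, and without probe sets that can match several transcripts, which left 6805 of 17098 genes. Without 1 replicate it was 9027 to 9196. The level set by the genes of other organs gave 8209, the median over a gene's probe sets 7158, and quantile normalization 8920, of which all 8920 were shared. The 99th percentile left 4 of 25 coreceptors, 8 of 24 cytokine receptor chains, 0 of 14 B cell, 0 of 14 cytotoxic and 0 of 12 red cell markers, 1 of 45 organ genes, 12 of 26 calcium, 5 of 20 MAP kinase, 6 of 14 NF-kB, 5 of 13 JAK-STAT, 5 of 21 immediate early, 1 of 23 cytokine and 15 of 31 cell death genes above. The 90th percentile gave 6 of 18 chemokine receptors, 2 of 20 myeloid markers, 2 of 12 class II genes and 5 of 45 organ genes. The level of the organ genes gave 0 B cell, 1 cytotoxic and 0 red cell markers, 1 organ gene and 1 cytokine. The median over probe sets gave 9 cytokine receptor chains, 1 B cell and 0 red cell markers, 1 organ gene, 13 calcium, 5 JAK-STAT and 6 immediate early genes. Probe sets chosen over the 9 arrays gave 1 red cell marker, and the mean of the arrays against the mean level gave 5 chemokine receptors. The red cell count ranged from 1 to 2 without 1 replicate. Leaving out the probe sets that can match several transcripts gave 4 of 4 receptor chains and 5 of 17 chemokine receptors. It gave 11 of 25 T cell factors, 0 of 18 myeloid markers, 8 of 9 class I and 6 of 10 NF-kB genes. Further counts were 6 of 16 immediate early, 9 of 12 chaperone, 0 of 20 cytokine and 16 of 26 cell death genes. Last came 21 of 30 ribosomal, 9 of 13 glycolytic, 18 of 25 cytoskeletal and 12 of 16 chromatin genes. Fewer genes were measured in this setting. In that setting 11 of the 100 brightest genes were ribosomal, and 23.5% of their promoters had a start tract; these last counts and the median SD were recomputed as alternatives chosen after seeing the data. Lower counts at a higher level follow from the construction. Without the probe sets that can match several transcripts the background level was set anew. Of the genes still measured there 814 were lost and 240 gained, so counts could move either way. For this and the other alternatives the cause was not tested. No paired analysis was possible because no groups were compared and no result comes from a test. Signal near the olfactory receptor genes limits what can be said of dim genes, for which only a bound is given.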

Other observations

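Among the 100 brightest genes some stood for probe sets whose other readings of the same gene were dim. HUWE1, a ubiquitin ligase, had a mean of 14.89 ± 0.31 over the 3 sham arrays for its brightest probe set, ranked 35, while its dimmest had 3.99, and 3 of its 5 probe sets were above background. FTH1P5, a ferritin heavy chain pseudogene, had 14.68 ± 0.27, and PABPC3, known as a testis form of the poly-A binding protein, had 14.62 ± 0.14, each from 1 probe set of the kind that can match several transcripts. KCNH2, a potassium channel gene beyond the GIMAP genes, was above background with 10.62 ± 0.13, where the T cell potassium channels KCNA3 and KCNN4 were at background. These genes were named after their values were seen, and whether the signal comes from the named gene was not tested.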
